A study of Mus musculus with 6 samples.

Results

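Chemokines are small secreted proteins that bind receptors on leukocytes and steer them along a gradient. The genes described here encode 10 chemokine ligands of the mouse, Ccl5, Cxcl10, Ccl2, Ccl7, Ccl20, Cxcl1, Cxcl5, Cxcl12, Cxcl16 and Cx3cl1, and were matched by symbol in a table of transcript counts from E0771 mouse breast carcinoma cells with and without knockdown of lamin A/C. Of the 10 ligands, 7 were among the 10520 genes of the table and 6 of these were among the 8969 genes with enough counts to be tested. The list was selected on measured values, since Ccl5 and Cxcl10 had already been seen to be lower after knockdown in the same 6 libraries, so the differences between the groups in these ligands are given as a description with no test. Ccl5 and Cxcl10 were the ligands with the most UMIs in the control cells, and their mean levels in the knockdown cells were 9.06% and 12.4% of those in the control cells. Cxcl16 was lower too, while Ccl2, Ccl7, Cxcl1 and Cx3cl1 had higher mean levels after knockdown, and transcripts of Ccl20, Cxcl5 and Cxcl12 were not in the table.

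E0771 is a breast carcinoma line from the C57BL/6 mouse strain. All cells were transduced with a lentiviral vector and selected with puromycin. The shControl cells carried the empty pLKO.5-puro vector, which has no hairpin of its own, and the shLmna cells carried 1 shRNA against Lmna, the gene of lamin A and lamin C, so that an effect of this shRNA on other transcripts and the knockdown cannot be told apart. Each group had 3 libraries made by MARS-seq, which reads transcripts from their 3′ ends and tags every captured molecule with a unique molecular identifier (UMI). The knockdown libraries are titled shRNA4, whereas their genotype reads shLmna. The labels do not say that the replicates were separate cultures, so p-values below measure the spread between these libraries, which may be technical.

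The libraries held 1846208 to 3242051 UMIs, and levels are given as UPM, the UMIs of a gene in each 1000000 UMIs of the library, after scaling by edgeR's TMM factors. One captured molecule gives 1 UMI whatever the length of its transcript, and UPM was not divided by length. Lmna had 807, 871 and 933 UPM in shControl replicates 1, 2 and 3 and 387, 374 and 378 UPM in the shLmna replicates, a log2 fold change of -1.20 (standard error 0.13, adjusted p = 3.55e-05, edgeR's quasi-likelihood test). A gene was called where its mean normalized count was above 5, its absolute log2 fold change above 1 and its adjusted p below 0.05. By these criteria 512 genes were called, which is 5.71% of those tested, with 356 (3.97%) higher and 156 (1.74%) lower in shLmna. On the plate, shControl took positions 13 to 15 and shLmna 16 to 18, and an effect of position cannot be told apart from the group. In bulk RNA of this kind, fewer cells that express a gene and less RNA in each cell cannot be told apart either.

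The ligands are grouped here by the leukocytes they attract. Ccl5 attracts T cells, natural killer cells and monocytes, and Cxcl10 acts through Cxcr3 on T cells and natural killer cells. Ccl2 and Ccl7 draw monocytes through Ccr2, and Cxcl1 and Cxcl5 draw neutrophils through Cxcr2. Cxcl16 and Cx3cl1 are made as membrane-anchored proteins that proteases shed, and they bind Cxcr6 and Cx3cr1. Cxcl12 and Ccl20 bind Cxcr4 and Ccr6. Many of these genes are switched on by NF-kappa-B, and Cxcl10 also by interferon regulatory factors.

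Promoters of 3 genes are shown because they hold the letters of such response elements beside genes that differed in opposite directions, Cxcl10 on the lower side and the neighbouring neutrophil chemokine genes Cxcl1 and Cxcl3 on the higher side. They are RefSeq promoters of GRCm38.p6 and run 5′ to 3′ from 250 bases before to 50 bases after the start of the gene. Cxcl10 is at chr5:92348840-92349139 on the reverse strand, Cxcl1 at chr5:90890995-90891294 on the forward strand and Cxcl3 at chr5:90785851-90786150 on the forward strand. Capitals mark matches to GGNNNTTCC, a kappa-B form, or to GAAANNGAA, an interferon response form, on either strand.
Cxcl10: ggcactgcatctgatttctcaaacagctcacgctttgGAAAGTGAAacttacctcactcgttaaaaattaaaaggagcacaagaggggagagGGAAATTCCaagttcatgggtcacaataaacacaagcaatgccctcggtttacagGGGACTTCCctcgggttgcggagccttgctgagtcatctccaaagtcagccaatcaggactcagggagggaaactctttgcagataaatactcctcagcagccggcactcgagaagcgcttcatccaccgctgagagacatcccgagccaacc
Cxcl1: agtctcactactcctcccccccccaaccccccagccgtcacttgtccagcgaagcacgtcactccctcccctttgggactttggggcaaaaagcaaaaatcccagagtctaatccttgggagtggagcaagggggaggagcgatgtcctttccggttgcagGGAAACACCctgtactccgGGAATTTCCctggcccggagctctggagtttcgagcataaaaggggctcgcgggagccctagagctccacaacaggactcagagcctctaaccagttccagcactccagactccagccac
Cxcl3: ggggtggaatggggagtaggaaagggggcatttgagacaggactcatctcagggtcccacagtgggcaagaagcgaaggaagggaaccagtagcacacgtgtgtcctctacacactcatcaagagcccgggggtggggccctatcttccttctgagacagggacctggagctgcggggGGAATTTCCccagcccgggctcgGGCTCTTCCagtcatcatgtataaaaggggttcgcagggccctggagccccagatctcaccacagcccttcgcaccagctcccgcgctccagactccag
Both forms occurred in the Cxcl10 promoter, with GAAAGTGAA from -213 to -205, GGAAATTCC from -158 to -150 and GGGACTTCC from -103 to -95 relative to the start. In the Cxcl1 promoter the kappa-B form stood at -89 to -81 on the reverse strand and at -70 to -62, and in the Cxcl3 promoter at -72 to -64 and at -49 to -41. The letters GGAATTTCC were shared by the Cxcl1 and Cxcl3 promoters. Read on the other strand they are GGAAATTCC, the letters at -158 to -150 of Cxcl10, so all 3 promoters hold this site. Promoter sequences were found for 5 of the 10 ligands, and besides Cxcl10 and Cxcl1 the kappa-B form was in those of Ccl20 and Cx3cl1 and not in that of Cxcl12. The promoter of Ppbp, a gene of the same cluster that was also higher, held neither form. Of 32851 mouse promoters of the same length, 18.5% held the kappa-B form, 8.56% the interferon response form and 1.41% both. A match of letters shows neither binding nor use of the site.

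Ccl5, on the reverse strand of chromosome 11 at 83525778 to 83530518 of GRCm38, was counted 409, 651 and 315 times in shControl replicates 1, 2 and 3. It was counted 41, 37 and 36 times in the shLmna replicates. In UPM these were 160, 203 and 167 against 15.3, 13.5 and 19.1. The groups lay far apart, with the lowest shControl library 8.38 times the highest shLmna library. The mean level was 176 ± 23.1 UPM (SD, n = 3) in shControl and 15.98 ± 2.83 UPM (SD, n = 3) in shLmna, an 11.0-fold lower mean. The log2 fold change of Ccl5 was -3.48 (standard error 0.19), which was number 2 from the lowest among the tested genes.

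Cxcl10, on the reverse strand of chromosome 5 at 92346638 to 92348889, had 367, 418 and 348 UMIs in the shControl replicates and 57, 66 and 21 UMIs in the shLmna replicates. The levels were 143, 130 and 184 UPM against 21.3, 24.1 and 11.1 UPM. No shLmna library came near a shControl library, and shLmna replicate 3 was the lowest of all. The mean was 153 ± 28.0 UPM (SD, n = 3) in shControl and 18.9 ± 6.84 UPM (SD, n = 3) in shLmna, 8.09-fold lower, and the log2 fold change was -2.97 (standard error 0.23), number 5 from the lowest. The libraries did not keep the same order for both genes within a group. In shLmna, replicate 3 was the highest for Ccl5 and the lowest for Cxcl10, and in shControl replicate 2 was the highest for Ccl5 and the lowest for Cxcl10. The counted end of Cxcl10 overlaps an exon of Art3 on the opposite strand over 66 bases, and whether the counting used the strand was not given in the sources used here. Art3 was not in the table.

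**Figure D1:**
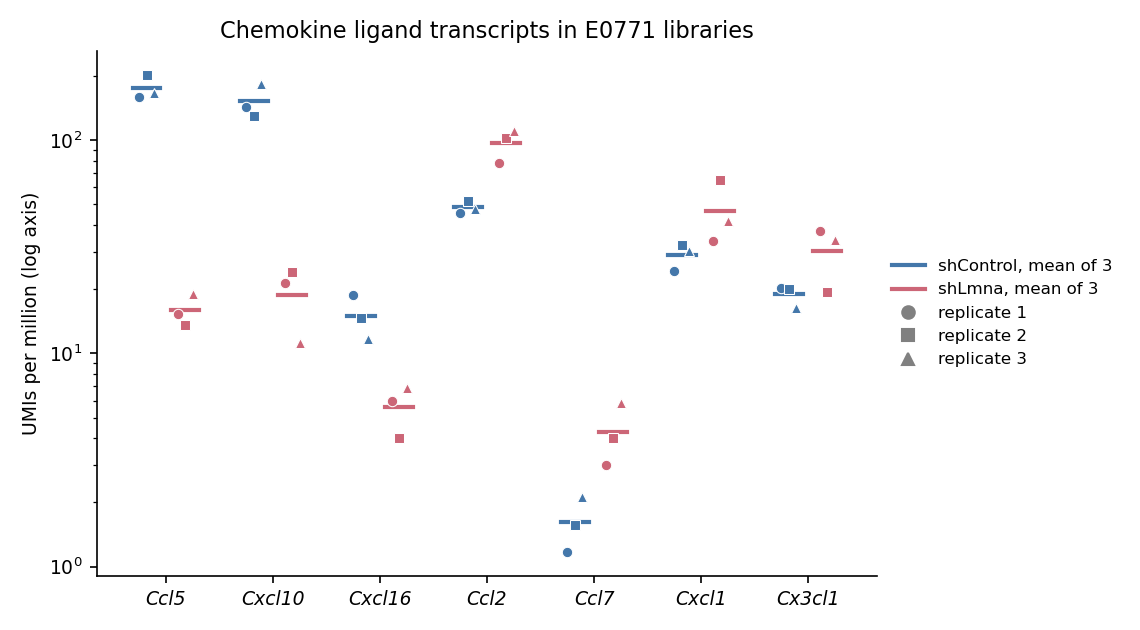
Level of each ligand in each library in UPM on a log axis, with shControl in blue and shLmna in red, a symbol for each replicate and a bar at the mean of 3 libraries. The groups stand apart for Ccl5, Cxcl10, Cxcl16, Ccl2, Ccl7 and Cxcl1, whereas 1 shLmna library of Cx3cl1, at 19.4 UPM, lies among the shControl libraries.

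Cxcl16, the membrane-anchored ligand of Cxcr6, lies on the reverse strand of chromosome 11 at 70453983 to 70459984. Its counts were small, with 48, 47 and 22 UMIs in the shControl replicates and 16, 11 and 13 UMIs in the shLmna replicates. The corresponding levels of 18.8, 14.6 and 11.6 UPM and of 5.98, 4.02 and 6.89 UPM did not overlap. Mean Cxcl16 was 15.01 ± 3.58 UPM (SD, n = 3) in shControl and 5.63 ± 1.46 UPM (SD, n = 3) in shLmna, 2.67-fold lower, with a log2 fold change of -1.45 (standard error 0.31). Cx3cl1, the other membrane-anchored ligand, went the other way on average. It lies on chromosome 8 at 94772009 to 94782427 and had 20.3, 19.9 and 16.4 UPM in the shControl replicates against 37.3, 19.4 and 33.9 UPM in the shLmna replicates. The means were 18.9 ± 2.17 UPM and 30.2 ± 9.53 UPM (SD, n = 3 each), and the log2 fold change of 0.66 (standard error 0.25) became 0.44 without shLmna replicate 1 and 0.91 without shLmna replicate 2. With replicate 2 within the shControl range, the groups overlapped for Cx3cl1.

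Ccl2 was the ligand with the most UMIs in the knockdown cells. It lies on the forward strand of chromosome 11 at 82035571 to 82037453, and it had 117, 167 and 90 UMIs in the shControl replicates and 209, 280 and 208 in the shLmna replicates. These were 45.7, 52.0 and 47.6 UPM against 78.1, 102 and 110 UPM, and every shLmna library was above every shControl library. The mean was 48.4 ± 3.24 UPM in shControl and 96.9 ± 16.8 UPM in shLmna (SD, n = 3 each). The log2 fold change of 0.99 (standard error 0.17) fell just short of the size asked of a called gene, and it was past it with upper-quartile scaling, with a mean count of at least 50, with a GC correction, and without shControl replicate 2 or shLmna replicate 1. Ccl7, which shares the receptor Ccr2, starts 8.26 kb beyond the end of Ccl2, at 82045712 to 82047525. It had 3, 5 and 4 UMIs in the shControl replicates and 8, 11 and 11 UMIs in the shLmna replicates, 12 against 30 in all, and did not pass the filter on low counts. The mean of Ccl7 was 1.62 ± 0.474 UPM in shControl and 4.28 ± 1.44 UPM in shLmna (SD, n = 3 each), a ratio of 2.65. The groups did not overlap for Ccl7, and its position and direction were those of Ccl2.

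Cxcl1, a neutrophil chemokine on the forward strand of chromosome 5 at 90891241 to 90893115, had 62, 103 and 57 UMIs in the shControl replicates and 90, 177 and 79 UMIs in the shLmna replicates. Its levels were 24.2, 32.1 and 30.1 UPM against 33.6, 64.8 and 41.9 UPM. The groups only just failed to overlap, since the lowest shLmna library was 1.05 times the highest shControl library. The mean was 28.8 ± 4.09 UPM in shControl and 46.7 ± 16.1 UPM in shLmna (SD, n = 3 each), with a log2 fold change of 0.70 (standard error 0.24). Replicate 2 carried much of that difference, and without this shLmna library the value was 0.38.

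Of the 6 ligands tested, 3 met the criteria, all of them lower in shLmna (Ccl5, Cxcl10 and Cxcl16), against 1.74% of all tested genes called lower. No ligand of the list was called higher, against 3.97% of all genes. The groups did not overlap for 5 of the 6, against 32.5% of all tested genes. These counts come from the contrast that chose the list, and nothing is read from them. The median log2 fold change of the 6 was -0.40, with 3 above 0 and 3 below, beside 0.00 for all tested genes, so that the median lay between ligands that differed in opposite directions. The last 1000 bases of the transcripts of the 7 ligands had 42.95% (Ccl7) to 54.7% (Cx3cl1) GC, with 47.1% as the median of the tested genes.

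**Figure D2:**
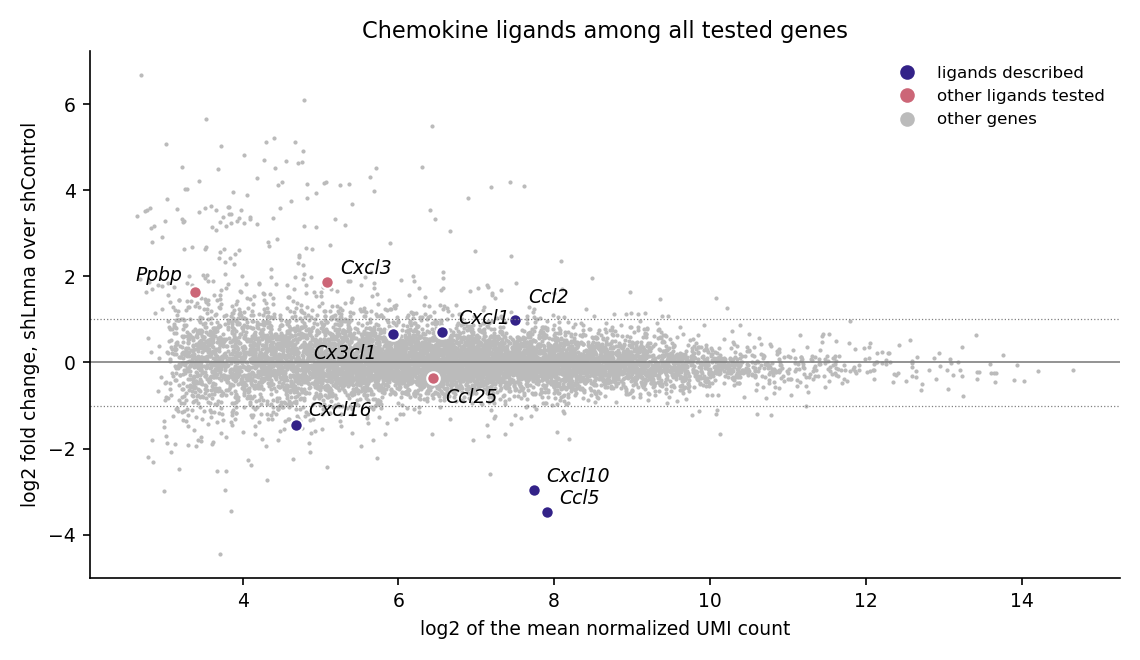
Each dot is 1 of the 8969 tested genes, with the log2 of its mean normalized UMI count on the x axis and its log2 fold change of shLmna over shControl on the y axis, and dotted lines at -1 and 1. Ccl5 at -3.48 and Cxcl10 at -2.97 lie below the cloud of genes with similar counts, Cxcl16 at -1.45 lies near its lower edge, and Ccl2, Cxcl1 and Cx3cl1 lie between 0.66 and 0.99.

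**Figure D3:**
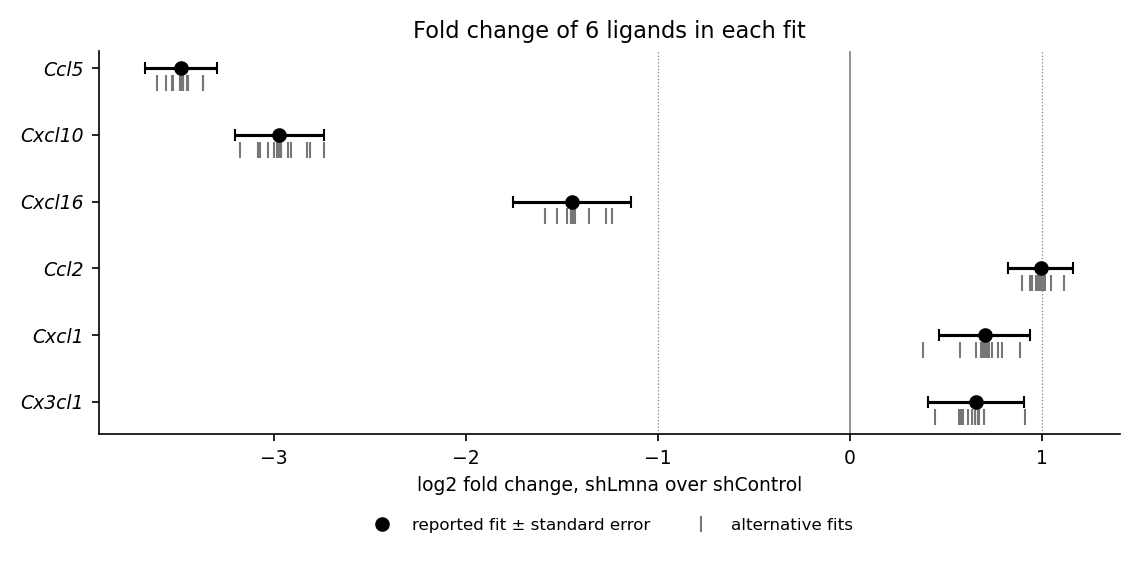
Log2 fold change of shLmna over shControl of the 6 tested ligands, as a black point with its standard error for the reported fit and as grey ticks for each alternative way of processing. The alternatives ran from -3.61 to -3.37 for Ccl5 and from -3.18 to -2.74 for Cxcl10, and from 0.38 to 0.88 for Cxcl1.

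The make-up of the chemokine transcripts was then examined over the 13 ligand genes in the table, which are the 7 above and Cxcl3, Ppbp, Ccl25, Ccl4, Ccl27a and Cxcl2. Together they had 472, 508 and 511 UPM in the shControl replicates and 254, 293 and 294 UPM in the shLmna replicates, or 497 ± 21.8 UPM against 280 ± 22.7 UPM (SD, n = 3 each). In the control cells Ccl5 and Cxcl10 made up most of these UMIs. Their share was 64.3% (95% exact binomial interval 61.5 to 67.0), 65.5% (63.2 to 67.8) and 68.6% (65.6 to 71.6) in the shControl replicates, and 14.4% (11.9 to 17.3), 12.9% (10.6 to 15.4) and 10.3% (7.89 to 13.1) in the shLmna replicates. The intervals cover counting error only. The groups were far apart, with means of 66.2 ± 2.23% and 12.5 ± 2.08% (SD, n = 3 each). Ccl2 took 9.75 ± 0.464% of the ligand UMIs in shControl and 34.4 ± 3.44% in shLmna (SD, n = 3 each). The share of Cxcl1 and Cxcl3 together was 6.96 ± 0.263% in shControl and 24.2 ± 3.84% in shLmna (SD, n = 3 each). Ccl5 and Cxcl10 thus had the most UMIs of the 13 ligands in control cells, and Ccl2 and Cxcl1 had the highest mean levels in knockdown cells, where Ccl25, Cx3cl1 and Cxcl3 followed at 30.5, 30.2 and 21.5 UPM. A share rises where another falls, so these shares are not separate measurements.

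**Figure D4:**
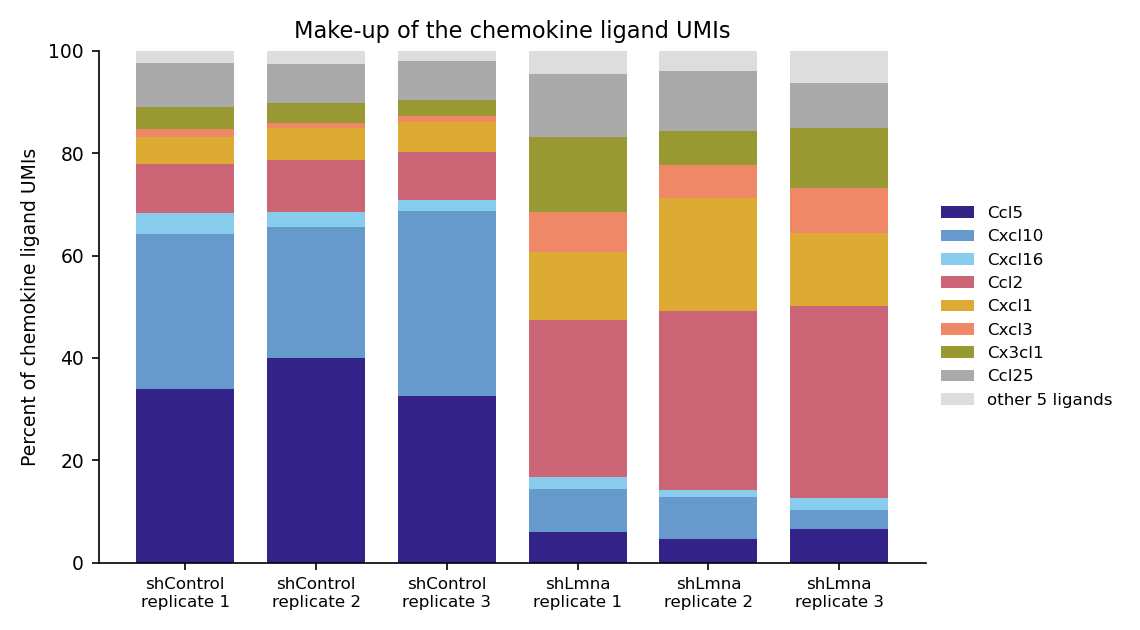
Share of each ligand among the UMIs of the 13 chemokine ligand genes in percent, stacked to 100 for each library, with Ccl7, Ppbp, Ccl4, Ccl27a and Cxcl2 summed as other ligands. Ccl5 and Cxcl10 fill 64.3 to 68.6% of the shControl bars and 10.3 to 14.4% of the shLmna bars, and Ccl2 is the widest band in each shLmna bar.

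Other chemokine ligands of the mouse were listed as a group of 30 genes, of which 6 were in the table and 3 were tested. Cxcl3 and Ppbp were called, both higher, against 3.97% of all tested genes, and the median log2 fold change of the 3 was 1.64. With no filter on low counts all 6 were tested and 3 were called, with Ccl4 added as lower. Cxcl3, a neutrophil chemokine that acts through Cxcr2 as Cxcl1 does, had 19, 15 and 10 UMIs in the shControl replicates and 53, 51 and 49 in the shLmna replicates. It rose from 5.80 ± 1.44 UPM to 21.5 ± 3.93 UPM (SD, n = 3 each), with a log2 fold change of 1.87 (standard error 0.28, adjusted p = 0.000511). Ppbp, the precursor of another Cxcr2 ligand, had 4, 6 and 5 UMIs against 17, 12 and 16, and rose by a log2 fold change of 1.64 (standard error 0.43, adjusted p = 0.0202). The call of Ppbp was lost with DESeq2 (adjusted p = 0.0884) and without shControl replicate 1 or 2 or shLmna replicate 1 or 3, where the adjusted p was 0.0916, 0.114, 0.0795 and 0.110. Ccl25, a ligand of Ccr9 known from the thymus and gut, had 39.5 ± 1.39 UPM in shControl and 30.5 ± 4.24 UPM in shLmna (SD, n = 3 each) and did not pass the test (log2 fold change -0.36, adjusted p = 0.209).

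The other 3 did not pass the filter on low counts. Ccl4, which attracts monocytes and T cells, had 9, 19 and 5 UMIs in the shControl replicates and 0, 2 and 3 in the shLmna replicates, so that its mean was at least 3.17-fold lower in shLmna against a floor of 3 UMIs per library. Fitted by edgeR with no filter, Ccl4 met the criteria as lower (adjusted p = 0.0399). DESeq2 tested all 6 other ligands and called 1 of them higher and 0 lower, so Ccl4 was not called there. Each shLmna library was below every shControl library for Ccl4, as it was for Ccl5. Ccl27a had 10, 6 and 5 UMIs against 4, 3 and 5, and Cxcl2 had 2, 7 and 0 against 2, 4 and 0, and both overlapped between the groups and did not pass the test with no filter (adjusted p = 0.469 and 0.818).

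The neutrophil chemokine genes that were tested lie close together on chromosome 5, where Cxcl5 lies too but was not in the table. Ppbp is at 90768518 to 90770063, Cxcl3 at 90786103 to 90789600 and Cxcl1 at 90891241 to 90893115, all on the forward strand. Within 200 kb of Cxcl1, 3 other genes were tested, Ppbp, Cxcl3 and the folate enzyme gene Mthfd2l, with log2 fold changes of 1.64, 1.87 and 1.16. Mthfd2l had 5, 11 and 6 UMIs against 20, 14 and 13 and did not pass the test (adjusted p = 0.0591). After correction for GC content its log2 fold change was 0.66 (adjusted p = 0.264), its counted end having 34.3% GC. Cxcl2, another neutrophil chemokine gene, lies closer to Cxcl1, at 10.8 kb, but the filter left it out. It had 2, 7 and 0 UMIs against 2, 4 and 0, so it was not seen to be higher. Ereg, 182 kb from Cxcl1, was also left out, with 1, 0 and 1 UMIs against 6, 4 and 5. Cxcl10, also on chromosome 5 but 1.45 Mb beyond Cxcl1, had 5 tested neighbours within 200 kb, with log2 fold changes from -0.30 to 0.18 and none called. On chromosome 11 the 2 tested neighbours of Ccl5 had -0.04 and 0.95, and the 10 of Cxcl16 lay between -0.59 and 0.37, none called. The 7 tested neighbours of Cx3cl1 on chromosome 8 lay between -0.32 and 0.38, none called. Ccl5 is 1.48 Mb beyond Ccl7 on the same chromosome. None of the tested neighbours of Ccl5, Cxcl10 and Cxcl16 was thus called, but Ccl4, which the filter left out, lies 132 kb from Ccl5 and had lower counts as given above.

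Next, the receptors of these ligands and the genes that act around them were described, from lists made for this purpose. Of 23 chemokine receptor genes, 3 were in the table and 1 was tested. Ackr3, a scavenging receptor of Cxcl12, had 28.3 ± 3.12 UPM in shControl and 23.1 ± 2.73 UPM in shLmna (SD, n = 3 each) and did not pass the test (log2 fold change -0.30, adjusted p = 0.357). Ccr7 had 7, 6 and 0 UMIs against 4, 6 and 3, and Ccrl2 had 6, 7 and 4 against 3, 5 and 2. The receptors of Cxcl10, Ccl2, Cxcl1, Cxcl16 and Cx3cl1 were not in the table.

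Among 23 genes of transcription factors and kinases that act on chemokine genes, up or down, 18 were tested. Of these, 1 was called lower and 1 higher, against 1.74% and 3.97% of all tested genes. The median log2 fold change was 0.03. Atf3, a stress-induced factor known to bind chemokine promoters, was lower in each knockdown library, with 90.7, 89.4 and 80.9 UPM in the shControl replicates against 30.6, 20.9 and 28.6 UPM in the shLmna replicates. It fell by 1.71 on the log2 scale (standard error 0.18, adjusted p = 2.85e-05). Hif1a, the oxygen-regulated factor, had 22.3, 41.8 and 81.9 UPM against 70.6, 153 and 124 UPM. The groups overlapped for Hif1a, and its log2 fold change of 1.28 (standard error 0.35, adjusted p = 0.0236) was 0.68 and not called after correction for GC content (adjusted p = 0.0719), its counted end having 32.1% GC. The call of Hif1a was also lost with DESeq2 (adjusted p = 0.193), without shControl replicate 1 or 2 (adjusted p = 0.0725 and 0.147) and without shLmna replicate 2 or 3 (adjusted p = 0.0900 and 0.117). Jun, a subunit of AP-1, was chosen for mention after its values were seen and had 151 ± 5.10 UPM against 76.8 ± 6.67 UPM (SD, n = 3 each). Its log2 fold change of -0.97 (standard error 0.14, adjusted p = 0.000471) was just under the size asked of a called gene and passed it without shLmna replicate 2 and with the GC correction, at -1.04 both times. The NF-kappa-B subunit gene Rela had 372 ± 74.7 UPM in shControl and 333 ± 21.3 UPM in shLmna, and Nfkb1 52.0 ± 14.9 and 55.1 ± 5.68 UPM (SD, n = 3 each). Neither of them passed the test (adjusted p = 0.536 and 0.869), nor did Irf1 (0.462) or Irf3 (0.181).

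Of 17 genes for inhibitors of these pathways and for proteins that act on the stability of chemokine mRNA, 14 were tested. Of these, 1 was called lower and none higher, a count near the 5.71% called of all genes, with a median of -0.06. Dusp1, a phosphatase that turns off MAP kinases, had 67.2, 82.3 and 107 UPM in the shControl replicates against 37.0, 32.9 and 37.6 UPM. It fell by 1.25 on the log2 scale (standard error 0.19, adjusted p = 0.000575). Zfp36, which binds AU-rich elements of cytokine mRNA and was chosen for mention after its values were seen, had 25.2 ± 3.15 UPM against 15.2 ± 2.03 UPM (SD, n = 3 each), a log2 fold change of -0.73 (adjusted p = 0.0375) that was too small for a call. Zfp36 did not pass the test with DESeq2 (adjusted p = 0.117) or after thinning (0.0953). Nor did it pass without shControl replicate 1 or 2 (0.0843 and 0.156) or without shLmna replicate 1, 2 or 3 (0.106, 0.0515 and 0.1075). Nfkbia, the inhibitor of NF-kappa-B, had 191 ± 20.8 UPM and 236 ± 35.8 UPM (SD, n = 3 each, adjusted p = 0.209).

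Of 25 genes for cytokines that induce chemokines and for their receptors, 16 were tested and 1 was called, a count near the 5.71% of all genes, and the median was 0.27. Il1rap, a subunit of the interleukin-1 receptor, had 3, 0 and 1 UMIs in the shControl replicates and 11, 12 and 13 in the shLmna replicates, at least 4.17-fold higher against a floor of 3 UMIs per library (adjusted p = 0.00599, and 0.0553 without shControl replicate 2). Il1r1, which binds interleukin-1 together with it and was chosen for mention after its values were seen, had 32, 30 and 23 UMIs against 55, 70 and 39. Its log2 fold change of 0.99 (standard error 0.23, adjusted p = 0.0118) was just under the size asked of a called gene, and it was past it without shControl replicate 1 or 3 or shLmna replicate 1 or 3, at 1.07, 1.04, 1.04 and 1.04, and with upper-quartile factors (1.01) or the GC correction (1.03). Without shControl replicate 2 or shLmna replicate 2 it was 0.85 and 0.88, and Il1r1 did not pass the test (adjusted p = 0.0863 and 0.05535).

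Of 13 genes for proteases that shed or trim chemokines and for the urokinase receptor (Plaur), 9 were tested. Of these, 1 was called, against 5.71% of all genes, and the median was 0.12. Mmp2, a gelatinase that can cleave chemokines, had 36, 44 and 16 UMIs in the shControl replicates and 85, 74 and 49 in the shLmna replicates. It rose by a log2 fold change of 1.20 (standard error 0.24, adjusted p = 0.00396). Of 21 genes for proteoglycans that hold chemokines at the cell surface and for the enzymes that build their chains, 13 were tested. None was called by edgeR, DESeq2 or limma-voom, a count near the 5.71% of all genes. In edgeR's test 7 of the 13 had an unadjusted p below 0.05, beside 2544 of the 8969 tested genes. This count was 4 of 18 for the transcription factors and kinases and 3 of 14 for the inhibitors and mRNA stability factors. For the inducing cytokines and receptors it was 6 of 16, and for the proteases 4 of 9. Ext1, Gpc1 and Hs6st1, chosen for mention after their values were seen, had log2 fold changes of 0.75, 0.74 and 0.57 (adjusted p = 0.00257, 0.0115 and 0.0376), too small for a call. The median log2 fold change of the 13 proteoglycan genes was 0.44, with 11 above 0 and 2 below, beside 0.00 for all tested genes.

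**Figure D5:**
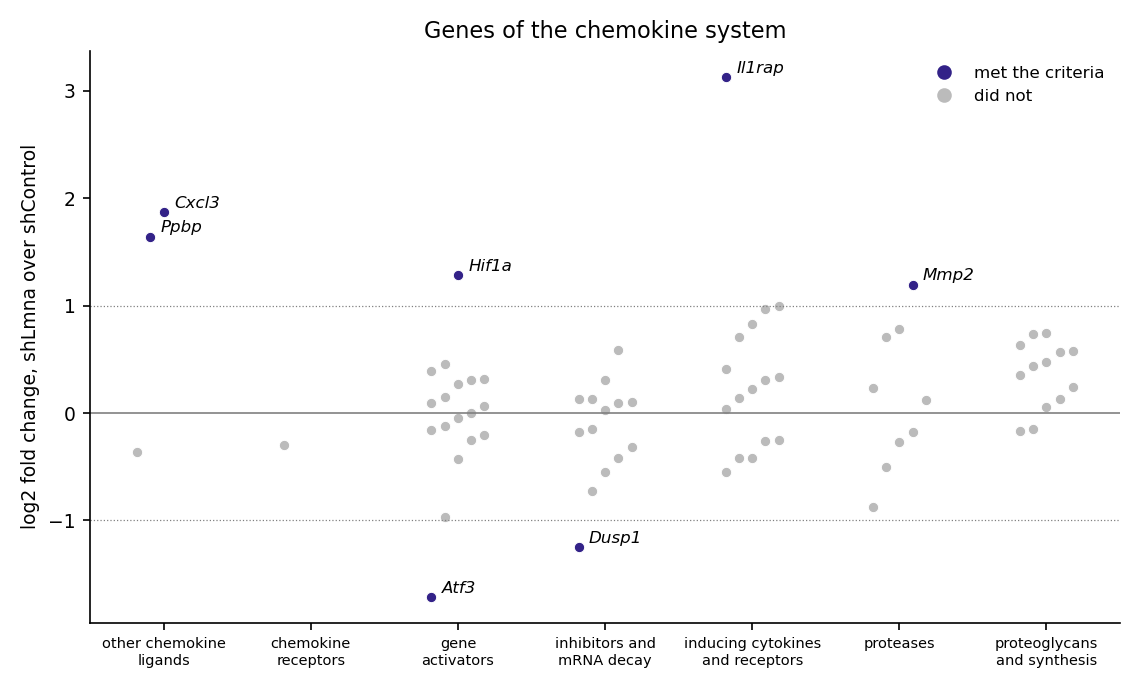
Log2 fold change of shLmna over shControl of each tested gene in 7 lists of the chemokine system, with called genes in dark blue and named, others in grey, and dotted lines at -1 and 1. Cxcl3, Ppbp, Hif1a, Il1rap and Mmp2 stand above 1 and Atf3 and Dusp1 below -1, and the point of Il1rap is a fitted value that depends on its near-zero shControl counts. The labels gene activators, inhibitors and mRNA decay, and proteases are short names, and not every gene of these lists has that role.

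Chemokines are also made by leukocytes, endothelial cells and fibroblasts, so markers of these cells were read in the same libraries. Of 14 leukocyte markers, 6 were in the table, and the defining genes Ptprc, Adgre1, Cd3e, Itgam and Tyrobp were not. Their summed level was 314 to 363 UPM in shControl and 345 to 404 UPM in shLmna, most of it Laptm5 with 294 ± 25.0 and 332 ± 31.3 UPM (SD, n = 3 each). Of the 4 tested, Cd14 was called lower (log2 fold change -1.30, adjusted p = 0.00256) and Lyz2 higher (1.28, adjusted p = 0.0110, and 0.0521 without shControl replicate 1). Of 8 endothelial markers, 2 were in the table, at 42.3 to 52.4 UPM in sum in shControl and 48.2 to 56.2 UPM in shLmna. Of 9 fibroblast markers, 5 were in the table, at 18.5 to 18.8 UPM in sum in shControl and 31.5 to 37.1 UPM in shLmna. Col3a1, a fibrillar collagen gene of that list, had 0, 0 and 0 UMIs in the shControl replicates and 13, 12 and 12 in the shLmna replicates, at least 4.23-fold higher against the floor, and without shLmna replicate 3 its mean count was too low for a call. The part of these marker genes in the differences of Ccl5, Cxcl10 and Ccl2 was not tested. Of 13 markers of mammary epithelium, 5 were in the table, at 293 to 346 UPM in sum in shControl and 306 to 343 UPM in shLmna. Most of the sum was the keratin gene Krt8, at 275 ± 27.4 and 290 ± 15.4 UPM (SD, n = 3 each). All 5 were tested and none was called, against 5.71% of all genes, with a median log2 fold change of -0.53. Epcam (-0.90), Krt14 (-1.18) and Krt18 (-0.53) were lower and Krt8 (0.07) and Erbb2 (0.37) higher. The groups did not overlap for Epcam and Krt14, against 32.5% of all tested genes. Cdh1, Krt19 and Krt5 were not in the table.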

How the data were processed

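RNA of 3 shControl and 3 shLmna E0771 libraries was profiled by MARS-seq. The authors mapped reads to mm10 with STAR 2.4.2a and counted UMIs over the last 1000 bases of each gene and 100 bases downstream, and the deposited counts are raw whole numbers for 10520 genes, none of which stayed under 6 UMIs in all libraries. The deposited ComBat-corrected log2 values and the authors' table of fold changes and p-values were not used.

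Analysis was done with edgeR 4.0.16 (R 4.3.3). After filterByExpr (minimum count 10) and TMM scaling, the groups were compared by edgeR's quasi-likelihood test with no replicate block, and p-values were adjusted by Benjamini-Hochberg. With 3 libraries against 3, single values were not tested on their own. DESeq2 1.42.0, limma-voom (limma 3.58.1), RLE and upper-quartile factors, no filter, a mean count of at least 50, thinning, a GC correction (loess span 0.3), a replicate block and leaving out each library were alternatives. The code was tested on simulated counts. Replicates differed by 5.11 to 8.28 in chi-square per degree of freedom, more than counting error alone gives. Each library was counted as its own sample, though the labels do not say that the replicates were separate cultures.

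The members and lists were chosen with earlier results of these data known. All present ligands and receptors are named, and of other lists up to 3 called genes per direction, unless stated. Gene positions came from GENCODE M21, in which 10468 genes were matched, 323 through an older symbol, and promoters from RefSeq GRCm38.p6. Some results are not reported here.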

Additional observations from a re-analysis of the deposited data

How the results depend on the processing

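None of the 6 tested ligands changed its direction under the alternatives that tested it, 16 in number, or 15 for Cxcl16. The number of the 6 ligands that met the criteria was 3 to 4: it was 4 with upper-quartile factors, with the GC correction and without shControl replicate 2 or shLmna replicate 1, each time with Ccl2 added, and with a mean count of at least 50 it was 3, with Ccl2 in and Cxcl16 not tested. Across all genes, 158 were called with a mean count of at least 50, fewer genes being tested, and 346 to 654 when a library was left out, with the fewest without shControl replicate 2. With the GC correction 312 genes were called higher and 208 lower, in place of 356 and 156. Transcription factors and kinases numbered 1 called gene with DESeq2 and 1 to 2 with a library left out. Other ligands numbered 1 with DESeq2, 0 with a mean count of at least 50, where Cxcl3 and Ppbp were not tested, 1 after thinning to the smallest library, 1 to 2 with a library left out, and 3 with no filter on low counts, where Ccl4 was called lower. Inducing cytokines and their receptors numbered 2 with upper-quartile factors, 2 with the GC correction, with or without the block, 0 with a mean count of at least 50, 0 after thinning and 0 to 2 with a library left out. The cause was not tested where none is given.

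Deviations of same-numbered libraries correlated at 0.34, -0.11 and 0.0087 across genes for numbers 1, 2 and 3, so that only those numbered 1 deviated together and the numbers were not taken as pairs. With the replicate block 518 genes were called, 3 of the ligands among them, and the log2 fold change of Ccl5 was -3.48. Ccl7, Ccl4, Ccl27a and Cxcl2 were fitted with no filter, where Ccl7 had an adjusted p of 0.107, and with DESeq2. DESeq2 called 0 of the 7 listed ligands in the table higher. Ccl7 was also fitted without shControl replicate 1, 2 or 3 and without shLmna replicate 1.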

Other observations

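The genes whose levels followed Ccl5 most closely over the 6 libraries were found among the 5842 genes with a mean of at least 50 UMIs, by Pearson's r of log2 levels. These were Rhob (r = 1.00), Utp20 (0.999), Nars (0.995), Nme1 (0.993) and Wdr74 (0.991), and r was above 0.9 for 321 genes. For Cxcl10 they were 1600002K03Rik (0.998), Pip5k1a (0.996), Plin2 (0.994), Zfp330 (0.994) and Akap8l (0.994), and r was above 0.9 for 300 genes. None of the 5 closest genes was shared by Ccl5 and Cxcl10. All points share the 2 groups of libraries, so that a gene that is lower in each shLmna library can have a high r even where its change is small. Rhob, which encodes a small GTPase, had a log2 fold change of -1.66, and Nme1, which encodes a nucleoside diphosphate kinase, one of -0.19.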
